A study of Rattus norvegicus with 13 samples.

Results

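Endothelial cells line the blood vessels, and 9 genes that mark them (Pecam1, Cdh5, Kdr, Flt1, Tek, Tie1, Vwf, Eng and Emcn) were looked up by gene symbol among the 14790 genes measured in rat mammary epithelial cells. Of these 9 genes, 8 had an entry under that symbol, and Pecam1 was not analysed here. RNA-seq was done on 13 Wistar-Furth rats with 1 library per rat, 6 rats at 6 weeks of age (within WOS, the window of susceptibility to mammary cancer) and 7 rats at 10 weeks (outside WOS). In both groups the abdominal and inguinal glands were taken apart by collagenase, and pieces of duct were held back on a nylon filter, so the cells are chiefly epithelial but not pure. The comparison asks how expression in these preparations differed between the ages, and no agent or transgene was used in either group.

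Endothelial cells hold to each other through VE-cadherin and PECAM1, and they sense the growth factor VEGF through receptors encoded by Kdr and Flt1. The angiopoietins act on the receptor made from Tek, with its relative Tie1, and keep vessels quiet or free them for remodelling, while endoglin (Eng) helps BMP and TGF-beta ligands to signal. In the mammary gland a capillary bed surrounds the ducts and alveoli and is rebuilt with the epithelium through puberty and pregnancy.

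None of the 8 endothelial cell genes was differentially expressed (DE) between the ages. The mean of log2 values was higher within WOS for 6 of the 8, and for 52.5% of all genes. Values are normalized counts, that is RSEM counts which the authors scaled per library and rounded. DE means a limma adjusted p under 0.05 (Benjamini-Hochberg over all 14790 genes), and log2 fold changes set 6 weeks against 10 weeks, so that a value above 0 is higher within WOS, on the scale of log2(normalized count + 1). By the same test 16.1% of all genes were DE, 8.71% up-regulated within WOS (1288 genes) and 7.39% up-regulated outside WOS (1093 genes). Beside the 0 of 8 genes that limma called, 1 (Cdh5) had an unadjusted p under 0.05, as did 31.6% of all genes. The ages overlapped for all 8 genes, while 6.07% of all genes had no overlap between the ages. The median log2 fold change of the 8 genes was 0.26, against 0.03 over all genes. With sample quality weights it was 0.08, with 4 of the 8 genes above 0. The counts of all DE genes moved with single rats, since leaving out rat 70 gave 803 and 608 and leaving out rat 84 gave 858 and 630. The count outside WOS was also 696 without rat 72, 694 without rat 74 and 671 without rat 87.

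The column totals lay between 13261906 and 15659533 normalized counts at 6 weeks and between 13766735 and 15402814 at 10 weeks, with no difference past the threshold in a two-sided exact permutation test (p = 0.301). Because of the authors' scaling these totals are not the depth of the libraries, which is unknown here. After removal of the age means, the first principal component over all genes held 28.3% of the variation and parted the rats into 5 with values above 0 (rats 75 and 80 at 6 weeks, rats 78, 81 and 83 at 10 weeks) and 8 with values under 0. No label names this split, which was seen in the data, and some values are also given for the 8 rats or the 5 rats alone. The median log2 fold change of the 8 endothelial cell genes was 0.09 in the 8 rats, with 4 genes above 0, and 0.59 in the 5 rats, with all 8 above 0. The summed level of the 8 endothelial cell genes ran from 10625 to 18078 normalized counts at 6 weeks (median 13958.5) and from 10854 to 16077 at 10 weeks (median 12351). Rats 75 and 80 at 6 weeks and rat 87 at 10 weeks had the highest sums, and the ages overlapped. In such bulk samples fewer endothelial cells and less RNA per endothelial cell cannot be told apart.

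Cdh5 (ENSRNOG00000013324) encodes VE-cadherin, the adhesion molecule of endothelial junctions. At 6 weeks it had a lowest value of 1631, a median of 2254.5 and a highest value of 3166 normalized counts, and at 10 weeks 1420, 1593 and 2365. All 6 rats within WOS lay above the median of the older rats, 3 of them above every older rat, with rat 87 the single older rat among the high values. The log2 fold change was 0.40 ± 0.17 (SE), with a 95% interval from 0.02 to 0.77 and a limma adjusted p of 0.137. Over the 8 rats alone it was 0.19 (adjusted p = 0.502).

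Vwf (ENSRNOG00000019689) encodes von Willebrand factor, which endothelial cells store and release to catch platelets at a wound. Its values at 6 weeks were 1612 at the lowest, 2151 at the median and 3039 at the highest, and at 10 weeks they ran from 983 to 2436 (mean 1846 ± 543, SD, n = 7). Rat 85 was lowest at 10 weeks, and the remaining rats of the ages lay across each other. The log2 fold change of Vwf was 0.29 ± 0.22 (SE), with a 95% interval from -0.19 to 0.76 and an adjusted p of 0.396. Without rat 85 it was 0.14 and without rat 75 0.19. Platelet precursors also make this protein, and beside it 4 of 7 platelet markers could be measured, with 0 DE by limma, 0 at an unadjusted p under 0.05 and summed levels of 171 to 468 normalized counts at 6 weeks and 175 to 295 at 10 weeks. The most abundant platelet marker was Gp1bb, and Pf4 was at 0 in 1 rat. The part of platelets in the Vwf values was not tested.

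Emcn (ENSRNOG00000022910) encodes endomucin, a surface sialomucin typical of capillaries and veins. It ranged from 442 to 754 at 6 weeks (median 538) and from 392 to 910 at 10 weeks (median 622). The older rats were spread widely, with rats 81, 78 and 83 lowest and rats 85 and 87 highest, and the 6-week values fell inside their range. Its log2 fold change was -0.11 ± 0.22 (SE), with a 95% interval from -0.59 to 0.38 and an adjusted p of 0.780. Leaving out 1 rat moved it between -0.20 without rat 86 and 0.0014 without rat 87, and it was -0.48 in the 8 rats and 0.39 in the 5 (adjusted p = 0.116 and 0.382). Whether the age difference itself differed between these rats was not tested.

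**Figure D1:**
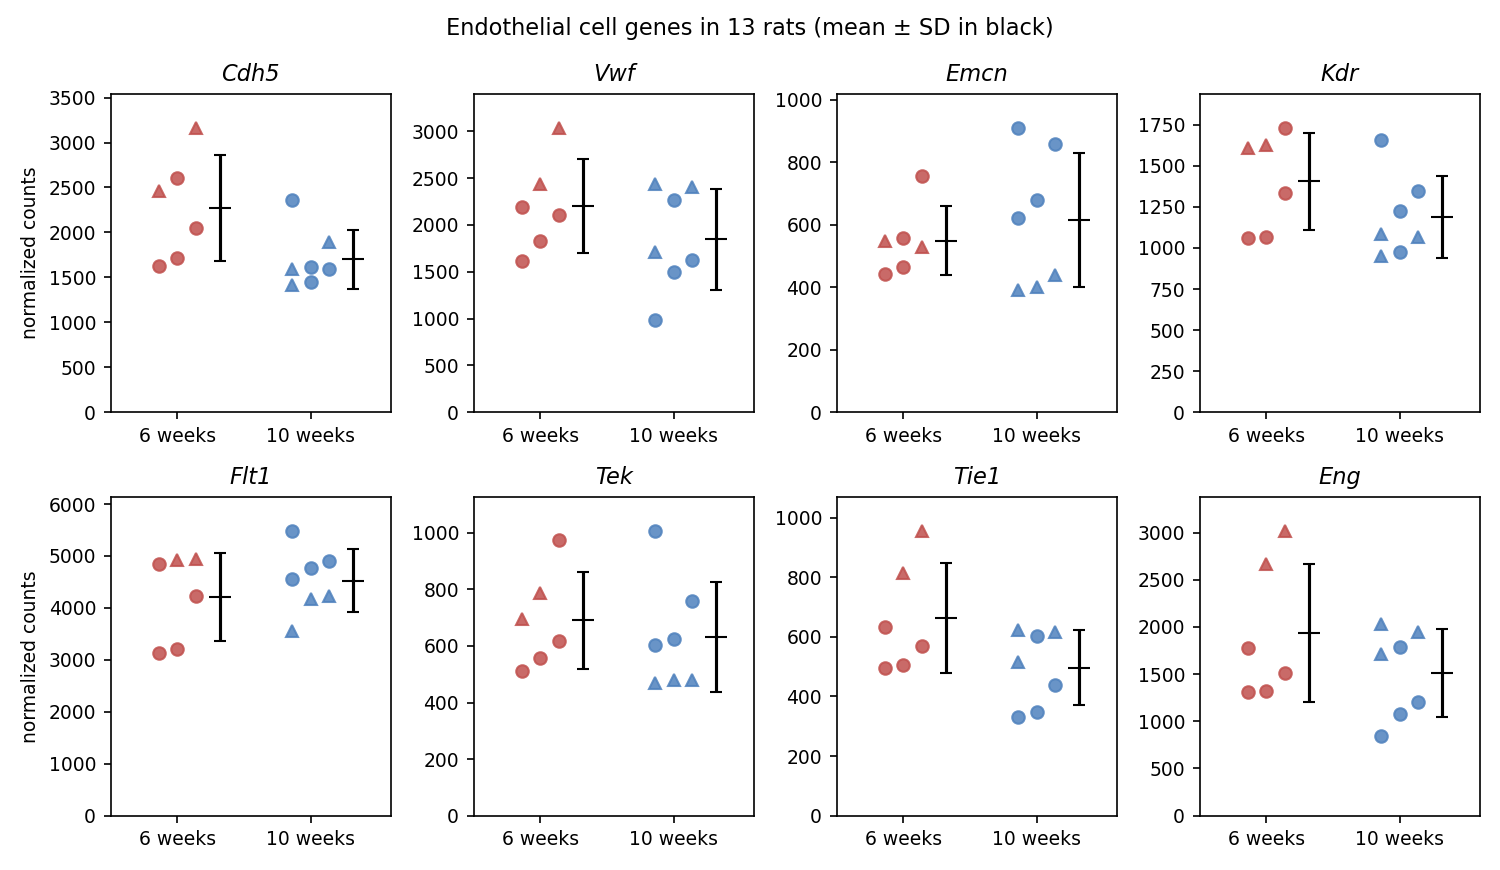
Normalized counts of the 8 endothelial cell genes in each rat, 6 weeks in red (n = 6) and 10 weeks in blue (n = 7), on linear axes that start at 0, with the mean and SD in black. Triangles are the 5 rats above 0 on the first component and circles the other 8, and the ages overlap in every panel.

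Kdr (ENSRNOG00000046829) encodes VEGFR2, the main signalling receptor for VEGF-A. Its values at 6 weeks were 1061, 1472.5 and 1733 (lowest, median and highest), and at 10 weeks 952, 1084 and 1659. Within WOS 2 rats (70 and 84) lay among the lower older rats and 4 lay above the older median. The log2 fold change was 0.24 ± 0.17 (SE), with a 95% interval from -0.12 to 0.60 and an adjusted p of 0.345. It was -0.01 in the 8 rats (adjusted p = 0.983), so the direction rested on which rats were used.

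Flt1 (ENSRNOG00000000940) encodes VEGFR1, which binds VEGF-A tightly but signals weakly and can act as a decoy. At 6 weeks it ran from 3140 to 4942 (median 4538) and at 10 weeks from 3559 to 5478 (median 4557). The lowest values of all were those of rats 70 and 84 at 6 weeks, the same rats that were lowest for Kdr at that age, and the medians were nearly equal. For Flt1 the log2 fold change was -0.12 ± 0.15 (SE), with a 95% interval from -0.44 to 0.20 and an adjusted p of 0.617. In the 5 rats it was 0.31 (adjusted p = 0.478) and in the 8 rats -0.37 (adjusted p = 0.125), and it ran from -0.17 to -0.04 when 1 rat was left out, nearest 0 without rat 70.

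Of the 8 genes for VEGF ligands and for the other VEGF receptors and co-receptors, 2 were up-regulated and 1 was down-regulated within WOS, with a median log2 fold change of 0.42. Vegfa, the ligand of both Kdr and Flt1, ran from 1862 to 2659 at 6 weeks (median 2155.5) and from 2854 to 4046 at 10 weeks (median 3353). Every rat within WOS lay below every older rat, and the log2 fold change was -0.62 ± 0.11 (SE, adjusted p = 0.00358). Epithelial and stromal cells also make Vegfa, so it does not mark the endothelium.

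Vegfd, a ligand of the lymphatic receptor Flt4, ran from 43 to 104 at 6 weeks (median 76.5) and from 8 to 27 at 10 weeks (median 19). The ages did not overlap, with a log2 fold change of 1.92 ± 0.31 (SE, adjusted p = 0.00144). Nrp1, a co-receptor that presents VEGF-A to Kdr, had 1186 to 1865 at 6 weeks (median 1397) and 754 to 1209 at 10 weeks (median 860). All but 1 of the rats within WOS lay above every older rat, and the log2 fold change of 0.60 ± 0.15 (SE) had an adjusted p of 0.0206. In the 8 rats the Nrp1 difference was 0.38, above the threshold at an adjusted p of 0.160, while Vegfa (-0.59, adjusted p = 0.0102) and Vegfd (1.77, adjusted p = 0.0183) were DE there too. The remaining genes Vegfb, Vegfc, Pgf, Nrp2 and Flt4 were not DE, at log2 fold changes from -0.30 for Vegfb to 0.60 for Vegfc (adjusted p = 0.414 and 0.114). With sample quality weights Pgf was called as well (0.39, adjusted p = 0.0402).

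Tek (ENSRNOG00000008587) encodes TIE2, the receptor for angiopoietins. Its values at 6 weeks were 510, 657.5 and 975 (lowest, median and highest), and at 10 weeks 470, 603 and 1006. Rat 86 at 6 weeks and rat 87 at 10 weeks stood highest, and the ages lay across each other. Its log2 fold change came to 0.15 ± 0.21 (SE), with a 95% interval from -0.30 to 0.59 and an adjusted p of 0.662. It was -0.19 in the 8 rats (adjusted p = 0.582), and leaving out 1 rat moved it between 0.04 without rat 86 and 0.27 without rat 87.

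Tie1 (ENSRNOG00000020173) encodes a receptor that pairs with TIE2 and modulates its signal. It ran from 496 to 955 at 6 weeks (median 601) and from 330 to 624 at 10 weeks (median 516). Rats 75, 80 and 70, all within WOS, lay above every older rat, and the 3 others lay inside the older range. The log2 fold change was 0.41 ± 0.21 (SE), with a 95% interval from -0.04 to 0.86 and an adjusted p of 0.194. With the first component as a term in the fit the estimate was the same and its adjusted p was 0.0512, in a range from 0.0512 to 0.330 over all alternatives.

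None of the 4 other genes of the angiopoietin system was called by limma, which found 0 in each direction. Angpt1, the activating ligand, had medians of 46.5 at 6 weeks and 48 at 10 weeks. Angpt2, a ligand released by endothelial cells that often blocks the receptor, ran from 413 to 658 at 6 weeks (median 552) and from 319 to 620 at 10 weeks (median 414), with an adjusted p of 0.331. Ptprb, the phosphatase that switches TIE2 off, had a median of 2546.5 at 6 weeks and 2070 at 10 weeks (adjusted p = 0.358). Of the 4 genes, 0 had an unadjusted p under 0.05.

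Eng (ENSRNOG00000050190) encodes endoglin, a co-receptor for BMP9 and TGF-beta on endothelial cells. Its values at 6 weeks were 1308 at the lowest, 1645 at the median and 3015 at the highest, and at 10 weeks they ran from 840 to 2030 (mean 1514 ± 467, SD, n = 7). The median was higher at 10 weeks, opposite in direction to the means, and 3 of the 6 rats within WOS lay above it. Rats 75 and 80 exceeded every other rat, whereas the other 4 rats within WOS lay inside the range of the older rats. The log2 fold change was 0.34 ± 0.27 (SE), with a 95% interval from -0.23 to 0.91 and an adjusted p of 0.403. It was 0.20 without rat 75 and 0.21 without rat 74.

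Of the 13 other genes listed for endoglin signalling, 10 were measured, 1 was up-regulated within WOS and 0 were down-regulated, with a median log2 fold change of 0.04. The DE gene was Acvrl1, which encodes ALK1, the endothelial type I receptor that endoglin assists. It ran from 177 to 403 at 6 weeks (median 231.5) and from 101 to 187 at 10 weeks (median 150). All but 1 of the 6 rats within WOS lay above every older rat, and the log2 fold change was 0.77 ± 0.19 (SE, adjusted p = 0.0182). Among the 8 rats it was 0.65 with an adjusted p of 0.0640. The inhibitory Smad7 (log2 fold change -0.33, adjusted p = 0.149) and the BMP target genes Id1 (0.13, adjusted p = 0.667) and Id3 (0.04, adjusted p = 0.920) were not DE. The 8 rats alone gave 0 up-regulated and 1 down-regulated, which was Smad7 (-0.55, adjusted p = 0.0207). With sample quality weights 2 were up-regulated and 1 down-regulated (median -0.07), with Tgfbr2, a type II receptor, at 0.44 (adjusted p = 0.0270) and Smad7 at -0.48 (adjusted p = 0.00715). Tgfbr2 was also called with the first component as a term (adjusted p = 0.0491) and without rat 86 (0.53, adjusted p = 0.0473). When 1 rat was left out, the median of the 10 genes ran from -0.07 without rat 74 to 0.10 without rat 84. It also lay under 0 without rat 75 (-0.06) or rat 80 (-0.03), and it was 0.08 without rat 86.

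Across the 13 rats the endothelial cell genes did not vary together as 1 block. With the age means removed, Eng and Tie1 ran in parallel over the 13 rats (Pearson r = 0.957, Spearman rho = 0.912), and r was 0.932 without the 2 rats farthest from the median of Tie1. Tek and Emcn ran in parallel as well (r = 0.918, rho = 0.857), with r = 0.878 without the 2 rats farthest out for Tek. Kdr and Flt1, the pair of VEGF receptors, had r = 0.876 and rho = 0.951, and r = 0.855 without the 2 rats farthest out for Kdr. Cdh5 went with Kdr (r = 0.839) and Flt1 (r = 0.832) more closely than with Tie1 (r = 0.555). Of all 28 pairs, 11 had an r over 0.7 and 5 an r under 0, the lowest being that of Eng with Emcn (r = -0.359, rho = -0.346). All these values describe rats that share 1 scaling, and the pattern was picked out after they were seen.

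The opposed pairs followed the parting of the rats. In the 8 rats under 0 on the first component, 0 of the 28 pairs had an r under 0, and r was 0.26 for Eng with Emcn, 0.883 for Eng with Tie1 and 0.952 for Tek with Emcn. For every r over a set of rats alone, here and further on, the age means removed were those of all 13 rats. An age difference within the set can remain in such values. The 5 other rats are too few to rest a correlation on. There r was 0.871 for Eng with Emcn, 0.951 for Eng with Tie1 and 0.968 for Tek with Emcn. The lowest r of a pair in those rats was 0.009, for Kdr with Vwf. Over the 13 rats the r with the first component was 0.854 for Eng, 0.786 for Tie1 and 0.60 for Vwf, against -0.649 for Emcn and -0.395 for Tek, and over the 8 rats it was 0.778, 0.621, 0.254, -0.325 and -0.244 in the same order. The ratio of Eng to Emcn in a rat ran from 1.25 in rat 85 to 5.51 in rat 75. It was 5.05 in rat 80, 4.87 in rat 78, 4.62 in rat 83 and 4.38 in rat 81, and the next highest was 3.82 in rat 70. Both ages were thus found at the high end of the ratio, and what sets the first component was not tested.

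**Figure D2:**
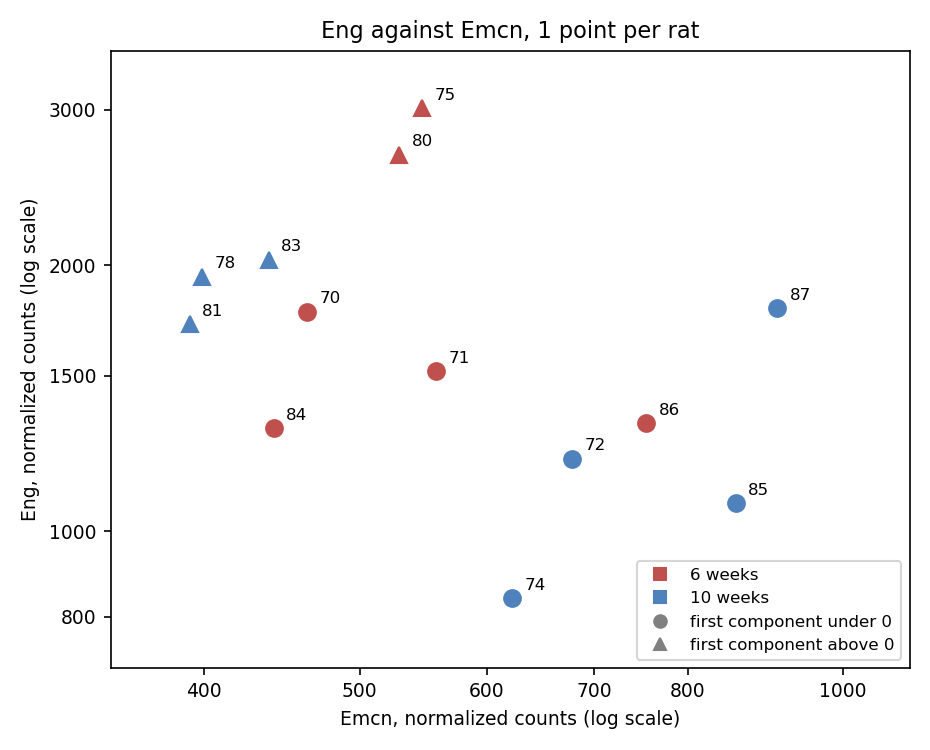
Normalized counts of Eng against those of Emcn on log axes, 1 point per rat with its number, 6 weeks in red and 10 weeks in blue. The 5 triangles (first component above 0) lie toward the upper left with ratios of 4.38 to 5.51, and the 8 circles have ratios of 1.25 to 3.82.

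Beyond the genes of the rule, 20 of 21 further endothelial markers were measured, and 3 of them were up-regulated and 0 down-regulated within WOS, with a median log2 fold change of 0.24. The median was 0.05 in the 8 rats, with 1 up-regulated, and 0.02 with sample quality weights, with 3 up-regulated and 1 down-regulated. Gpihbp1, which carries lipoprotein lipase to the capillary lumen, ran from 113 to 173 at 6 weeks (median 134.5) and from 15 to 68 at 10 weeks (median 42). The ages did not overlap, and the log2 fold change was 1.74 ± 0.28 (SE, adjusted p = 0.00142), with 1.86 in the 8 rats (adjusted p = 0.0107). Cd34, a sialomucin of endothelial cells that some fibroblasts also carry, had 591 to 891 at 6 weeks (median 813.5) and 359 to 664 at 10 weeks (median 494). All but 1 of the rats within WOS exceeded every older rat, with a log2 fold change of 0.67 ± 0.18 (SE, adjusted p = 0.0235), which was 0.39 in the 8 rats (adjusted p = 0.179).

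Cldn5, the claudin of endothelial tight junctions, ran from 85 to 215 at 6 weeks (median 144) and from 46 to 115 at 10 weeks (median 83). Its log2 fold change was 0.88 ± 0.26 (SE, adjusted p = 0.0368), and leaving out any 1 of 8 rats (70, 71, 75, 80, 72, 74, 78 or 87) ended the call, with an adjusted p of up to 0.0740, as did the fit in the 8 rats (0.81, adjusted p = 0.0610). The other 17 markers, such as Plvap of the diaphragms of fenestrated capillaries (0.42, adjusted p = 0.327) and Nos3, the endothelial nitric oxide synthase (0.0003), were not DE. These markers fell to both sides of the pattern among the rats. Nos3 (r = 0.93), Rasip1 (0.915) and Plvap (0.908) ran with the mean of Eng and Tie1, while Cd93 (0.927), S1pr1 (0.921) and Calcrl (0.919) ran with the mean of Emcn and Tek, over the 13 rats with age means removed. Over the 8 rats the same r values were 0.779, 0.884 and 0.827, and 0.978, 0.939 and 0.925. These 6 were named for their r after the values were seen.

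All 12 transcription factor genes of endothelial cells were measured, and limma called 0 of them, with a median log2 fold change of 0.002. At an unadjusted p under 0.05 there was 1, Sox18, a SOX factor of early vessels and lymphatics, which ran from 19 to 73 at 6 weeks (median 36) and from 16 to 32 at 10 weeks (median 21). Its log2 fold change was 0.76 ± 0.31 (SE, adjusted p = 0.109), and it was called without rat 84 (0.97, adjusted p = 0.0486), so that 1 of the 12 was up-regulated there. The median of the 12 ran from -0.08 without rat 80 to 0.07 without rat 71. Erg, the ETS factor that maintains endothelial identity, had medians of 634 at 6 weeks and 623 at 10 weeks, and Fli1, its close relative, had 142 and 170. Neither differed beyond the spread between rats (adjusted p = 0.966 and 0.890).

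Of the 4 measured genes for adhesion of white cells to activated endothelium (of 5), 2 were down-regulated and 0 up-regulated within WOS, with a median log2 fold change of -0.34. Sele, or E-selectin, ran from 941 to 2216 at 6 weeks (median 1034.5) and from 1869 to 4421 at 10 weeks (median 2268). Rat 86 alone reached the older range at 6 weeks, and the log2 fold change was -1.13 ± 0.24 (SE, adjusted p = 0.00884). Selp, or P-selectin, which platelets carry too, ran from 4161 to 7286 at 6 weeks (median 6005.5) and from 7455 to 12710 at 10 weeks (median 8610). There the ages did not overlap, with a log2 fold change of -0.68 ± 0.16 (SE, adjusted p = 0.0158). Vcam1 had a log2 fold change of 0.59 (adjusted p = 0.0790) and Icam1 of 0.002 (adjusted p = 0.992), and neither was DE. Vcam1 was called with limma-trend (adjusted p = 0.0499) and with the first component as a term (adjusted p = 0.0360). The markers of white cells are given further on, and their part in the selectin values was not tested.

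Among 13 genes of arteries, veins and sprouting vessels, 1 was up-regulated and 1 down-regulated within WOS, with a median log2 fold change of 0.01. Esm1, or endocan, which tip cells of sprouts release, ran from 75 to 111 at 6 weeks (median 83) and from 26 to 49 at 10 weeks (median 34). The ages did not overlap, and the log2 fold change was 1.24 ± 0.17 (SE, adjusted p = 4.96e-04). Efnb2, the ephrin ligand of arteries that epithelial cells make too, ran from 1731 to 2519 at 6 weeks (median 2342.5) and from 2775 to 4533 at 10 weeks (median 3415). Every rat within WOS lay below every older rat, with a log2 fold change of -0.67 ± 0.14 (SE, adjusted p = 0.00747). Dll4, the Notch ligand of tip cells, had medians of 207 at 6 weeks and 217 at 10 weeks (adjusted p = 0.889), and Bmx was at 0 in 1 rat. Esm1 and Efnb2 were DE in the 8 rats as well (adjusted p = 0.00909 and 0.0274). The count of up-regulated genes was 4 in the 8 rats, 4 with sample quality weights and 3 with the first component as a term, with 1 down-regulated in each. Beside Esm1 these were the Notch target Hey1, the receptor Notch4 and the peptide ligand Apln in the 8 rats (0.99, 0.87 and 1.71, adjusted p = 0.0389, 0.0425 and 0.00317). With weights they were Hey1, Apln and the connexin gene Gja4 (adjusted p = 0.00700, 0.00377 and 0.0198), and with the component Hey1 and Notch4 (adjusted p = 0.00459 and 0.0248). The count was 3 without rat 86, with Gja4 and Hey1 called (adjusted p = 0.0443 and 0.0374), and 2 without rat 80, 78, 81 or 83. The gene gained was Apln without rat 80 or 81 (adjusted p = 0.0221 and 0.0369), Hey1 without rat 78 (adjusted p = 0.0315) and Gja4 without rat 83 (adjusted p = 0.0409). The median of the 13 genes ran from -0.04 without rat 75 to 0.14 without rat 70 and was -0.02 without rat 86.

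Of the 5 lymphatic genes, 0 were up-regulated and 1 was down-regulated within WOS, with a median log2 fold change of 0.04. Pdpn, or podoplanin, which basal epithelial cells and fibroblasts also make, ran from 2097 to 2542 at 6 weeks (median 2210.5) and from 2322 to 3665 at 10 weeks (median 2991). Its log2 fold change was -0.43 ± 0.12 (SE, adjusted p = 0.0260), and the call was lost without rat 70, 84, 72 or 87 (adjusted p up to 0.0576) and when every column was scaled to the same total (adjusted p = 0.0683). Prox1, the master factor of lymphatic identity (log2 fold change -0.23, adjusted p = 0.405), and Lyve1 (0.04, adjusted p = 0.935) were not DE. Flt4, also in this list, is counted among the VEGF receptors as well. Over the 8 rats the median of the lymphatic genes was -0.36, and the medians also lay on the other side of 0 for the genes of the angiopoietin system (-0.05), endoglin signalling (-0.09), transcription factors (-0.07) and arteries, veins and sprouts (-0.06). With sample quality weights Reln was called in the lymphatic list (0.44, adjusted p = 0.0216). Leaving out rat 70 gave the call for Reln too (0.51, adjusted p = 0.0405). The lymphatic median ran from -0.06 without rat 74 to 0.18 without rat 84 and also lay under 0 without rat 75, 80, 86, 81 or 83 (-0.04, -0.06, -0.04, -0.03 and -0.02).

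**Figure D3:**
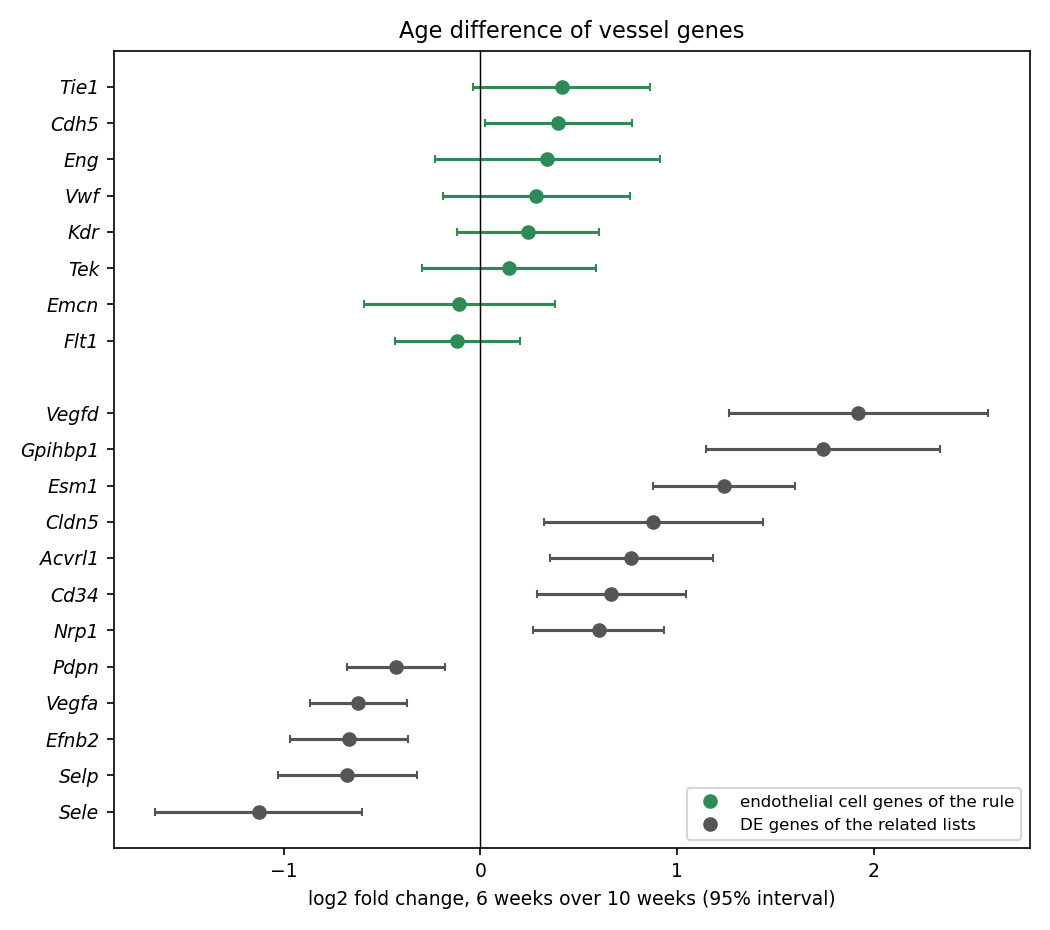
Log2 fold change of 6 weeks over 10 weeks with its 95% interval, for the 8 endothelial cell genes (green) and for the DE genes of the further vessel lists (grey). Of the green intervals, that of Cdh5 alone lies above 0, from 0.02 to 0.77, while the grey points run from -1.13 for Sele to 1.92 for Vegfd.

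Of the markers of cells around vessels, some but not all were DE. All 10 mural cell markers (pericytes and vascular smooth muscle) had a log2 fold change above 0, as had 52.5% of all genes. Of the 10 markers, 4 were up-regulated within WOS and 0 down-regulated, and the median was 0.64 (0.44 in the 8 rats, with 2 up-regulated). Their summed level was 6335 to 9395 normalized counts at 6 weeks (median 7025) and 3782 to 5679 at 10 weeks (median 5163), so the sums of the ages did not overlap. Pdgfrb, the receptor that draws pericytes to vessels, ran from 1380 to 2383 at 6 weeks (median 1869.5) and from 718 to 1445 at 10 weeks (median 1110), with a log2 fold change of 0.73 ± 0.18 (SE, adjusted p = 0.0170). Abcc9, a potassium channel subunit of pericytes, had no overlap, at 833 to 1320 and 464 to 733, with a log2 fold change of 0.73 ± 0.14 (SE, adjusted p = 0.00553). Among the 8 rats these were 0.53 for both (adjusted p = 0.139 and 0.0529), and with sample quality weights Pdgfrb had an adjusted p of 0.0507. Cspg4 (0.82, adjusted p = 0.0452) and Mcam (0.41, adjusted p = 0.0411), which endothelial cells also carry, lost the call when 1 rat was left out, Cspg4 with any 1 of 9 rats (70, 71, 75, 80, 84, 72, 74, 85 or 87, adjusted p up to 0.0883) and Mcam with each of 12 rats, all but rat 85 (adjusted p up to 0.0803). Cspg4 also lost it with median-ratio scaling (adjusted p = 0.0505) and Mcam in the 8 rats (0.18, adjusted p = 0.263). The most abundant mural marker was Notch3 (0.75, adjusted p = 0.123), which was called with sample quality weights (adjusted p = 0.00838), with the first component as a term (adjusted p = 0.00538) and in the 8 rats (adjusted p = 0.0132), where Cspg4 was the other gene called. Rgs5, a pericyte gene (0.55, adjusted p = 0.0534), was called in 6 alternatives, namely a pseudocount of 10 (adjusted p = 0.0454), at least 10 in every rat (0.0408), limma-trend (0.0331), weights (0.0343), the component (0.0471) and without rat 85 (0.0109). The mural count was thus 6 with the component as a term, 5 with weights and 2 without rat 70, 71, 75, 80, 84, 72, 74 or 87. Higd1b was at 0 in 1 rat.

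Of 9 measured fibroblast markers (of 10), 5 were up-regulated within WOS and 0 down-regulated, with a median log2 fold change of 1.92. Their summed level was 106959 to 223071 normalized counts at 6 weeks and 19644 to 55916 at 10 weeks, and Col3a1 was the most abundant (log2 fold change 2.14 ± 0.26 SE, adjusted p = 2.90e-04). Mfap5 (2.19), Fap (2.19) and Lum (2.02) were DE too, with adjusted p of 2.21e-04, 0.00122 and 4.92e-04. The other 4, Dcn (0.57, adjusted p = 0.197), Dpt (0.52, adjusted p = 0.124), Pdgfra (0.13, adjusted p = 0.780) and Fbln1 (-0.24, adjusted p = 0.518), were not DE. The part of these stromal cells in the levels of the endothelial cell genes was not tested.

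Among blood cell markers, all 6 measured mast cell genes (of 7) were up-regulated within WOS with a median log2 fold change of 3.28 and sums of 406 to 965 at 6 weeks against 25 to 240 at 10 weeks. Their most abundant gene was Cpa3, Tpsab1, Cpa3, Tpsb2 and Ms4a2 had log2 fold changes of 3.98, 3.86, 3.29 and 3.27, and Ms4a2, Tpsab1, Tpsb2 and Hdc were at 0 in at least 1 older rat. Hdc (1.94, adjusted p = 0.0370) lost the call, which left 5 of the 6, with a pseudocount of 0.1 (adjusted p = 0.112) and without rat 70, 71, 75, 84, 86, 74, 83 or 87 (adjusted p up to 0.0762). Red blood cell genes, which travel inside vessels, were measured by 5 entries for 4 of 7 genes, and all 5 were up-regulated within WOS (median 2.52). Their sums were 1854 to 5679 at 6 weeks (median 3224.5) and 254 to 1226 at 10 weeks (median 495), without overlap. Hbb, the most abundant, had a log2 fold change of 2.60 ± 0.37 (SE, adjusted p = 6.51e-04), the Hba2 entries, which near-identical copies can share reads with, had 2.54 and 2.52, and Slc4a1 had 2.20 and was at 0 in 1 rat. Alas2 (1.44, adjusted p = 0.0262) lost the call without rat 70 or 84 (adjusted p up to 0.0525). The summed endothelial cell genes overlapped between the ages where these sums did not, and how far retained blood entered the values was not tested.

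Of 10 macrophage markers limma called 0, with 1 at an unadjusted p under 0.05, a median log2 fold change of -0.05, sums of 1707 to 3039 at 6 weeks and 1655 to 2999 at 10 weeks, and Cd14 as the most abundant. Their median was 0.04 in the 8 rats and 0.05 with sample quality weights, where 1 was down-regulated, Adgre1 (-0.87, adjusted p = 0.00652). Without rat 86 Adgre1 was called too (-0.84, adjusted p = 0.0473) and the macrophage median was 0.06. That median was -0.19 without rat 70 and above 0 without rat 80, 84, 78, 81 or 85 (0.02, 0.02, 0.01, 0.04 and 0.06). Among lymphocyte markers Cd4 was the most abundant, at 68 to 141 at 6 weeks and 90 to 213 at 10 weeks, and it was not DE (-0.31, adjusted p = 0.364). Cd79b and Ms4a1 were at 0 in some rats. The B cell gene Cd79b was DE (1.79, adjusted p = 0.0352) but lost the call without any 1 of 6 rats (70, 75, 80, 74, 81 or 87), with an adjusted p of up to 0.0814, with pseudocounts of 0.1 and 10 (0.0505 and 0.0514), with limma-trend (0.0791), with sample quality weights (0.0547) and in the 8 rats (0.159). Of the 8 measured adipocyte markers (of 10), 3 were up-regulated within WOS and 0 down-regulated, with a median of 0.32 and sums of 1841 to 2678 and 1994 to 3051. Adipoq (2.41, adjusted p = 0.0130) and Plin1 (1.94, adjusted p = 0.0188) were at 0 in 1 and 2 older rats and lost the call with a pseudocount of 0.1 (adjusted p = 0.0537 and 0.0533), Cfd (1.48, adjusted p = 0.0415) lost the call without any 1 of 8 rats (70, 71, 75, 80, 84, 72, 74 or 87, adjusted p up to 0.0811), and Fabp4, the most abundant and also a gene of capillary endothelium, was not DE (-0.09, adjusted p = 0.764). The median of the adipocyte markers was 0.58 in the 8 rats, with 4 up-regulated, Cidec among them (1.11, adjusted p = 0.0133), and Cidec was called with sample quality weights too (0.78, adjusted p = 0.0237). With at least 10 in every rat, a filter that removed Adipoq, Plin1 and Cfd, the adipocyte median was -0.09.

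The epithelium that the samples are named for was present in every rat. Luminal markers summed to 38045 to 55943 normalized counts at 6 weeks and 51641 to 67494 at 10 weeks, with 0 of 10 up-regulated and 2 down-regulated within WOS (median -0.13). The luminal median lay above 0 in the 8 rats (0.03) and with sample quality weights (0.08), with 1 gene down-regulated in each. When 1 rat was left out the luminal median ran from -0.185 without rat 84 to -0.02 without rat 86. It was -0.07 without rat 75 and -0.37 in the 5 rats. The most abundant, Cdh1, had a log2 fold change of -0.47 ± 0.12 (SE, adjusted p = 0.0165), and Epcam (-0.39, adjusted p = 0.0454) lost the call without any 1 of the 13 rats (adjusted p up to 0.0808), with the same total for every column (0.107), with sample quality weights (0.174) and in the 8 rats (0.217). Basal markers summed to 26222 to 40734 and 36311 to 47289, with 0 of 10 up-regulated and 1 down-regulated within WOS (median 0.06) and Myh11 the most abundant. That gene was Cnn1 (-0.46, adjusted p = 0.0357), whose call was lost without any 1 of 9 rats (70, 75, 84, 86, 72, 74, 83, 85 or 87, adjusted p up to 0.0669), with the same total for every column (0.108) and in the 8 rats (0.0925), while Acta2 was called with sample quality weights (-0.43, adjusted p = 0.0462) and Myh11 without rat 81 (-0.44, adjusted p = 0.0497). The basal median was -0.02 without rat 74 and -0.09 in the 5 rats. All 8 cell cycle genes were up-regulated within WOS (median 2.45), with Ccnb1, Top2a, Cdk1 and Mki67 at 3.14, 3.05, 2.95 and 2.49, and which cells they came from cannot be told apart. Plk1 (2.15, adjusted p = 0.0342) lost the call, which left 7 of the 8, with a pseudocount of 0.1 (adjusted p = 0.0907) and without rat 70, 71, 80, 84, 74 or 85 (adjusted p up to 0.0758).

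The genes most like the endothelial cell genes were sought among the 8850 others with a mean of at least 100 normalized counts, by Pearson r over the 13 rats with the mean of the 8 genes after removal of the age means. The highest r was that of Arhgap31 (0.948), a regulator of the small GTPases CDC42 and RAC1, followed by Syne1 (0.940), a nuclear envelope protein, and Tcf4 (0.921), a basic helix-loop-helix factor. Ptprm (0.904), an adhesive phosphatase, Rgl1 (0.904), Tead4 (0.903), Plxna2 (0.900), the VEGF and semaphorin co-receptor Nrp2 (0.899), the clock gene Cry2 (0.899) and Sema6d (0.895) completed the 10. In the 8 rats r lay between 0.86 for Plxna2 and 0.972 for Syne1. None of the 10 was DE between the ages, with log2 fold changes from -0.19 for Cry2 (adjusted p = 0.479) to 0.28 for Nrp2 (adjusted p = 0.244).

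Promoters are shown for Eng and Tie1, which ran in parallel, and for Emcn, which ran apart from them. RefSeq promoters (GRCr8), 250 bases before to 50 after the start of a gene, were at hand for 5 of the 9 genes, namely Kdr, Flt1, Tie1, Eng and Emcn. The letters AGGAAG, a core that ETS factors such as Erg and Fli1 can bind, were searched on both strands and chosen after the sequences were seen. They occurred in 4 of these 5 promoters, and in 34.5% of all 33469 promoters of 300 bases. Kdr was the gene without these letters in this window. A match describes the sequence and is not a site. The sequences read 5′ to 3′ as RefSeq gives them, with AGGAAG or its complement CTTCCT in capitals, for Eng on the plus strand at chr3:36332029-36332328, Tie1 on the minus strand at chr5:137304932-137305231 and Emcn on the plus strand at chr2:228564289-228564588.
Eng: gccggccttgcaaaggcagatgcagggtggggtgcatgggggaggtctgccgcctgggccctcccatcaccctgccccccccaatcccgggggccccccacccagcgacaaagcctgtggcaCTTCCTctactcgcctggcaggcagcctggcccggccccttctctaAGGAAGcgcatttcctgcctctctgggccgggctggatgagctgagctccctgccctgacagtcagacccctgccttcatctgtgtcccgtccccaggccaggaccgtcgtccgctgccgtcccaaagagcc
Tie1: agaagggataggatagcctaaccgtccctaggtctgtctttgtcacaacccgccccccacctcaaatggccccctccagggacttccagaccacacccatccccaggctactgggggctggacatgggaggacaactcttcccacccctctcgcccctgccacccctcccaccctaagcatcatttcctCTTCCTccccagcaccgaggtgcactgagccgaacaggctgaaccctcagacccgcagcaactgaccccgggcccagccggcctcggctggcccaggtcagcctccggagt
Emcn: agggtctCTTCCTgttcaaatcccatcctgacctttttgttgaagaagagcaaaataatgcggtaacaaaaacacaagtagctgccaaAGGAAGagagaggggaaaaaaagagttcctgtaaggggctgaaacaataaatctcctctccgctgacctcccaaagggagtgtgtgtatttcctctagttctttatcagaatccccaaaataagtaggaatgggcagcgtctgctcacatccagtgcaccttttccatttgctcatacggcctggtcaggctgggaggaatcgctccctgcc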

How the data were processed

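The 13 per-rat columns of the deposited table hold a score, namely RSEM counts which the authors scaled per library and rounded to whole numbers, here called normalized counts. The submitters' processing notes name RSEM 1.2.22, edgeR, DESeq2 and the build rn5. The annotation and the scaling factors are not given in the sources used here. The table also holds the authors' own comparison of the ages (fold changes, p-values), which was not used. Whole reads could not be recovered, and in 7 of 13 columns some whole number from 1 to 15 never occurs, so 1 unit need not be 1 read. The depth behind a value is therefore unknown.

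Log2(normalized count + 1) was fitted with limma 3.58.1 in R 4.3.3, with no covariate. The minimum mean of 1 was met by all 14790 genes. P-values were two-sided and Benjamini-Hochberg adjusted over all genes, with a threshold of 0.05. Totals were compared by an exact permutation test over 1716 assignments. Other steps used Python 3.11.15 with numpy 2.4.6, pandas 2.3.3, scipy 1.17.1 and matplotlib 3.10.9.

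The endothelial cell genes and the lists were chosen with earlier results of these data known. Not every lymphocyte marker is reported here, so no sum or median is given for that list. From each list the DE genes were named, at most 4 with the largest fold change, with the most abundant marker and markers at 0 of other cell types, and the 10 genes most alike. A further gene serves as an example or changed its call under an alternative, and was chosen after its values were seen. Alternatives were 3 other scalings, pseudocounts of 0.1 and 10, at least 10 in every rat, no filter, sample quality weights, limma-trend, the first residual component as a term, and leaving out each rat. Fits in the 8 and in the 5 rats alone were added after seeing the data.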

Additional observations from a re-analysis of the deposited data

Results flagged for a closer look

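In 98 groups of rats, 10 held 1 rat whose distance to its nearest neighbour was large against the range of its age. The 98 groups were each age for each endothelial cell gene, the summed genes, the column totals and the other named genes. Distances were taken on normalized counts and not on the log2 scale of the fits. About 1 in 20 would be given by chance for independent groups with normally distributed values. The groups share rats, so 10 of 98 does not measure an excess. Among the 16 groups of the endothelial cell genes themselves 1 held such a rat, rat 86 at 6 weeks for Emcn. Its value was 754 normalized counts, against 558 in the next rat. The summed level of the 8 genes was 16077 in rat 87 at 10 weeks, against 13057 in the next. At 6 weeks rat 86 also stood apart for Sele, with 2216 against 1182, and for Lum, with 5862 against 3118. At 10 weeks Col3a1 was low in rat 74, at 10482 against 23312, and Cpa3 was high in rat 85, at 116 against 36. Rat 81 at 10 weeks was high for 4 cell cycle genes, with Mki67 at 766 against 387, Top2a at 282 against 127, Cdk1 at 45 against 14 and Ccnb1 at 27 against 15. No endothelial cell gene of rat 81 stood apart in this way.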

How the results depend on the processing

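Limma called 0 of the 8 endothelial cell genes in each of the 25 alternatives. At an unadjusted p under 0.05 there were 5 in the 5 rats alone (lowest limma adjusted p = 0.265) and 0 to 3 in every other alternative. The share of all genes at that p in these alternatives is not given here. The fold changes of Cdh5, Tie1, Vwf and Eng were above 0 in all 25. With sample quality weights those of Kdr and Tek were -0.028 and -0.15, and in the 8 rats alone -0.0073 and -0.19. In the 5 rats alone Flt1 was 0.31 and Emcn 0.39, and Emcn ran from -0.20 to 0.0014 when 1 rat was left out. DE genes up-regulated within and outside WOS numbered 3009 and 2638 with quality weights, and 0 and 0 in the 5 rats alone, which hold few rats per age. In the 8 rats 2003 were up-regulated within WOS, and with the first component as a term 1651 outside WOS. Leaving out 1 rat gave 803 to 1461 and 608 to 1219. Where no cause is given, the cause was not tested. Of the 39 DE entries with the largest fold changes in the other lists, at most 4 a list, 31 were called in every fit without 1 rat and 29 in the 8 rats, none was called in the 5 rats, and none changed direction. The filter of at least 10 in every rat left some of them untested. The unknown depth limits what can be said of low values.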
